A study of Mus musculus with 18 samples.

Results

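The collagen genes described here were those with a single gene symbol of the form Col, number, a, number in the annotation of the array's probe sets, taken from the identifiers that the probe table covers. There were 39 such genes among 14807 genes with 1 chosen probe set, and each had 1 probe set. A probe set naming Col19a1 together with another gene was left out, and Col6a4, Col6a5, Col22a1 and Col28a1 were not analysed here. RNA came from 18 mouse embryos at E13.5, from the dorsal telencephalon, which later becomes the neocortex. By genotype for a knockout of Insm1, a transcription factor with zinc fingers that acts in young neurons and hormone-producing cells, 8 were wildtype, 6 heterozygous and 4 homozygous. The labels give neither the strain, the design of the knockout allele nor the litters, so p-values reflect only how much these embryos differed. Each embryo was read on 1 whole-transcript array as a log2 signal per probe set, on which a difference of 0.5 is a 1.41-fold change and one of 0.25 a 1.19-fold change.

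Collagens are secreted or membrane-bound proteins built of chains that wind into a triple helix. Fibrillar collagens give connective tissue its tensile strength, type IV collagens form the sheet of basement membranes, and smaller families sit on fibrils, join cells to the matrix or carry heparan sulfate chains. Around the embryonic cortex, the meninges, the blood vessels and the pial basement membrane on which radial glia anchor their endfeet are the known sites of collagen.

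Insm1 itself was measured first, as a check of the genotypes. Wildtype embryos had a signal of 5.34 ± 0.34 (SD, n = 8), heterozygous embryos one of 4.77 ± 0.39 (SD, n = 6) and homozygous embryos one of 3.31 ± 0.34 (SD, n = 4). The single values in the last group lay at 3.61, 3.54, 3.23 and 2.87, below every other embryo (limma, log2 difference from wildtype -2.03, SE 0.20, adjusted p = 3.8e-05). The heterozygous difference of -0.57 did not pass (adjusted p = 0.641). The sources do not say whether these probes fall within the deletion. Among the other array-wide values, the 75th percentile of the tested probe sets was 4.50 in heterozygous replicate 6 and 4.67 to 4.87 in the other arrays. The mean of a list of hypoxia response genes was 4.98 in heterozygous replicate 6 and 5.03 in homozygous replicate 2, against 3.31 to 3.74 in the other embryos. The Y-linked gene Eif2s3y was high in 5 wildtype, 3 heterozygous and 1 homozygous embryos, so this marker of male embryos was not balanced between genotypes.

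Signal was set against 718 probe sets of olfactory receptors, genes of the nasal epithelium, whose mean signals had a median of 0.39 and a 95th percentile of 0.91. By this measure 31 of the 39 collagen genes lay above the 95th percentile and 8 at or below it. Of all tested probe sets, 34.6% lay under it. Only Col2a1, Col18a1, Col4a1, Col20a1, Col4a2, Col9a2 and Col5a1, 7 genes in all, exceeded the median of all tested probe sets, 2.13. The median signal of the collagen genes was 1.52, with a range from 0.30 to 4.46. Signals of different probe sets were not ranked as abundances, since probes differ in response.

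The label "meninges and vessels" was compared with marker lists that hold no collagen. Of 16 meningeal and mesenchymal markers, 10 lay at or below the olfactory receptor percentile, among them Lum, Tbx18, Aldh1a2 and Postn, with mean signals of 0.55, 0.57, 0.45 and 0.44. The meningeal markers above it included Prrx1 at 4.38, Dcn at 2.08 and Foxc1 at 1.83. At or below it were also 4 of 13 endothelial markers, 2 of 9 pericyte markers and 6 of 7 cartilage markers. None of 6 markers of the dorsal telencephalon lay there, and their median signal was 7.11. The share of all tested probe sets under that percentile was 34.6%. Because most meningeal markers were near background, the genes are called here simply collagen genes. In bulk tissue, fewer cells of a type and less RNA per cell cannot be told apart.

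**Figure D1:**
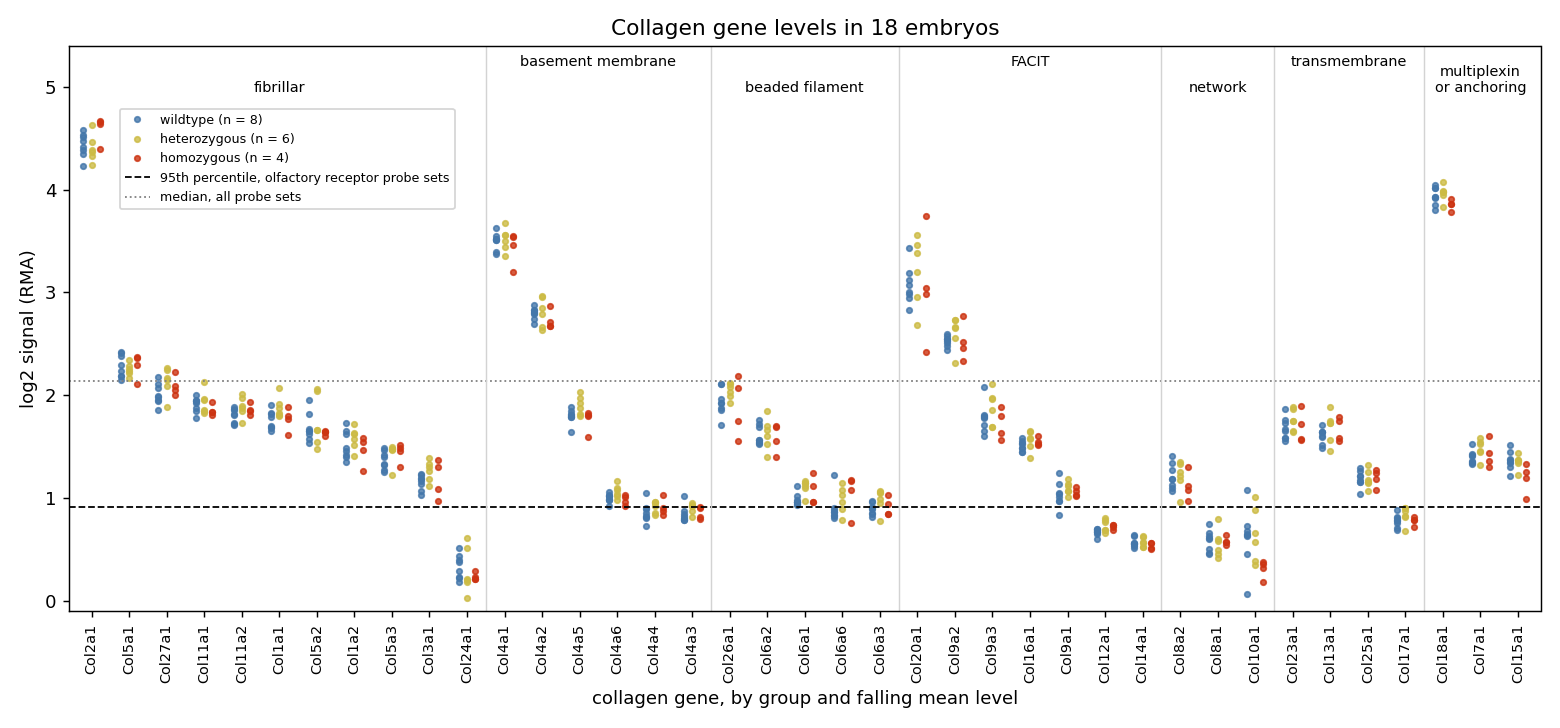
Signals of the 39 collagen genes in 18 embryos, as log2 signal (RMA) on the vertical axis, with the genes grouped by structural class on the horizontal axis and 1 point per embryo, coloured by genotype. The dashed line is the 95th percentile of olfactory receptor probe sets (0.91) and the dotted line the median of all tested probe sets (2.13). The points of the 3 genotypes overlap for every gene.

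Upstream sequences of collagen genes are shown for 3 members used in the comparisons below, each 250 bases ending at the base before a transcription start, 5′ to 3′, from RefSeq (GRCm38.p6). Col1a2 lies at chr6:4505368-4505617 on the plus strand, Col3a1 at chr1:45311288-45311537 on the plus strand and a start of Col18a1 at chr10:77166531-77166780 on the minus strand. Capitals mark the CCAAT box (CCAAT or its reverse ATTGG), the TATA motif TATAAA (or TTTATA) and the GC box GGGCGG (or CCGCCC), found on either strand.
Col1a2: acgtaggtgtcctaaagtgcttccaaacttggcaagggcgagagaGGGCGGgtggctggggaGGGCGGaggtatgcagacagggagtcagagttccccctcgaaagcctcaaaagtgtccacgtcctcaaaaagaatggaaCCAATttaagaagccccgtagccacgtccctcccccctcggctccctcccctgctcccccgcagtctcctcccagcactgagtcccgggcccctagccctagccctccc
Col3a1: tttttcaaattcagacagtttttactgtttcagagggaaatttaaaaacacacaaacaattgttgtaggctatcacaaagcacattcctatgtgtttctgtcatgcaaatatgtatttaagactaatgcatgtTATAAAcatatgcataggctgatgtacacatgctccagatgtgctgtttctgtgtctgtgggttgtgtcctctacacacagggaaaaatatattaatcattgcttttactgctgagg
Col18a1: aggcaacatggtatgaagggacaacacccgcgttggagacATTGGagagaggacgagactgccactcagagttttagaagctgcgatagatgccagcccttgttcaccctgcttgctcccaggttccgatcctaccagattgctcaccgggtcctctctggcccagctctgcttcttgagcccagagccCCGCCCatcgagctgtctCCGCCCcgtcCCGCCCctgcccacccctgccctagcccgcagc
The Col1a2 window held 1 CCAAT motif and 2 GC boxes, the Col3a1 window 1 TATAAA and the Col18a1 window shown 1 CCAAT motif and 3 GC boxes. Another Col18a1 start, with its window at chr10:77113706-77113955, held none of these motifs. Across 34 such windows of 31 collagen genes, CCAAT occurred in 12 (35.3%), against 33.9% of all 32851 windows searched. TATAAA occurred in 5 (14.7%), against 12.4%, and GGGCGG in 20 (58.8%), against 32.7%. The motifs could overlap, and a match is a description of letters, not a binding site. Col4a1 and Col4a2, which encode chains of the same basement membrane trimer, are neighbours on opposite strands of chromosome 8.

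No collagen gene passed the test in embryos homozygous for the knockout. Against wildtype, 0 of 39 reached an adjusted p under 0.05 in limma, where 0.564% of all 16661 probe sets did. The smallest adjusted p was 0.202. Without adjustment, 2 collagen genes had a p under 0.05, where 15.3% of all probe sets did. For 0 of 39 did the homozygous and wildtype embryos lie apart without overlap, against 2.48% of probe sets. The log2 difference was positive for 20 and negative for 19, with a median of 0.00, while 40.9% of all probe sets had a higher mean in homozygous embryos. Up to the olfactory receptor percentile, 4 of 8 collagen genes and 56.3% of probe sets were higher. Between that percentile and the median of all probe sets the values were 14 of 24 and 41.3%, and above the median 2 of 7 and 30.1%. The median absolute difference was 0.0493 for the collagen genes and 0.0853 for all probe sets, which were not matched for signal level. The 95% interval of the difference lay within ±0.5 for 38 of 39 genes, all but Col10a1, and within ±0.25 for 30. Of the 39 genes, 8 lay at or below the olfactory receptor percentile, and RMA compresses low signals. Another 24 lay between that percentile and the median of all probe sets, and the highest olfactory receptor signal was 2.35. A narrow interval at such low signals does not show a stable RNA level, here or in the comparisons below.

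The heterozygous embryos gave no called member either. Against wildtype, 0 of 39 collagen genes and 0% of all probe sets passed, and the smallest adjusted p among members was 0.658 in limma. Unadjusted p values under 0.05 were found for 2 collagen genes and for 7.47% of probe sets. The mean was higher in heterozygous embryos for 33 of 39 collagen genes, against 39.5% of probe sets, with a median log2 difference of 0.06. Signs depended on level: among probe sets at or below the olfactory receptor percentile 62.9% were higher, as were 6 of 8 collagen genes there. Between that percentile and the median, 49.8% of probe sets and 22 of 24 collagen genes were higher, and above the median 20.2% and 5 of 7. All 39 intervals lay within ±0.5 and 34 within ±0.25. Further quantile normalization left 33 higher and median centring made 39 higher. The same scalings gave 26 and 34 higher members, in place of 20, in the homozygous comparison. Leaving out homozygous replicate 3 gave 27 higher members there, and leaving out homozygous replicate 4 gave 12. The direction of the collagen genes as a group thus depended on scaling and on single embryos in that comparison.

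Homozygous embryos were also compared with heterozygous ones. Of 39 collagen genes 0 passed, where 0.0300% of probe sets did, and the smallest adjusted p was 0.548 in limma. Unadjusted p values under 0.05 were reached by 4 collagen genes, Col2a1, Col4a5, Col15a1 and Col10a1, and by 8.53% of probe sets. The mean was lower in homozygous embryos for 33 of 39 collagen genes, against 55.7% of probe sets, with a median of -0.06. Up to the olfactory receptor percentile, 7 of 8 collagen genes and 55% of probe sets were lower. Between that percentile and the median the values were 21 of 24 and 62.1%, and above the median 5 of 7 and 54.3%. The 3 comparisons share groups in pairs, so their directions are not independent of one another.

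**Figure D2:**
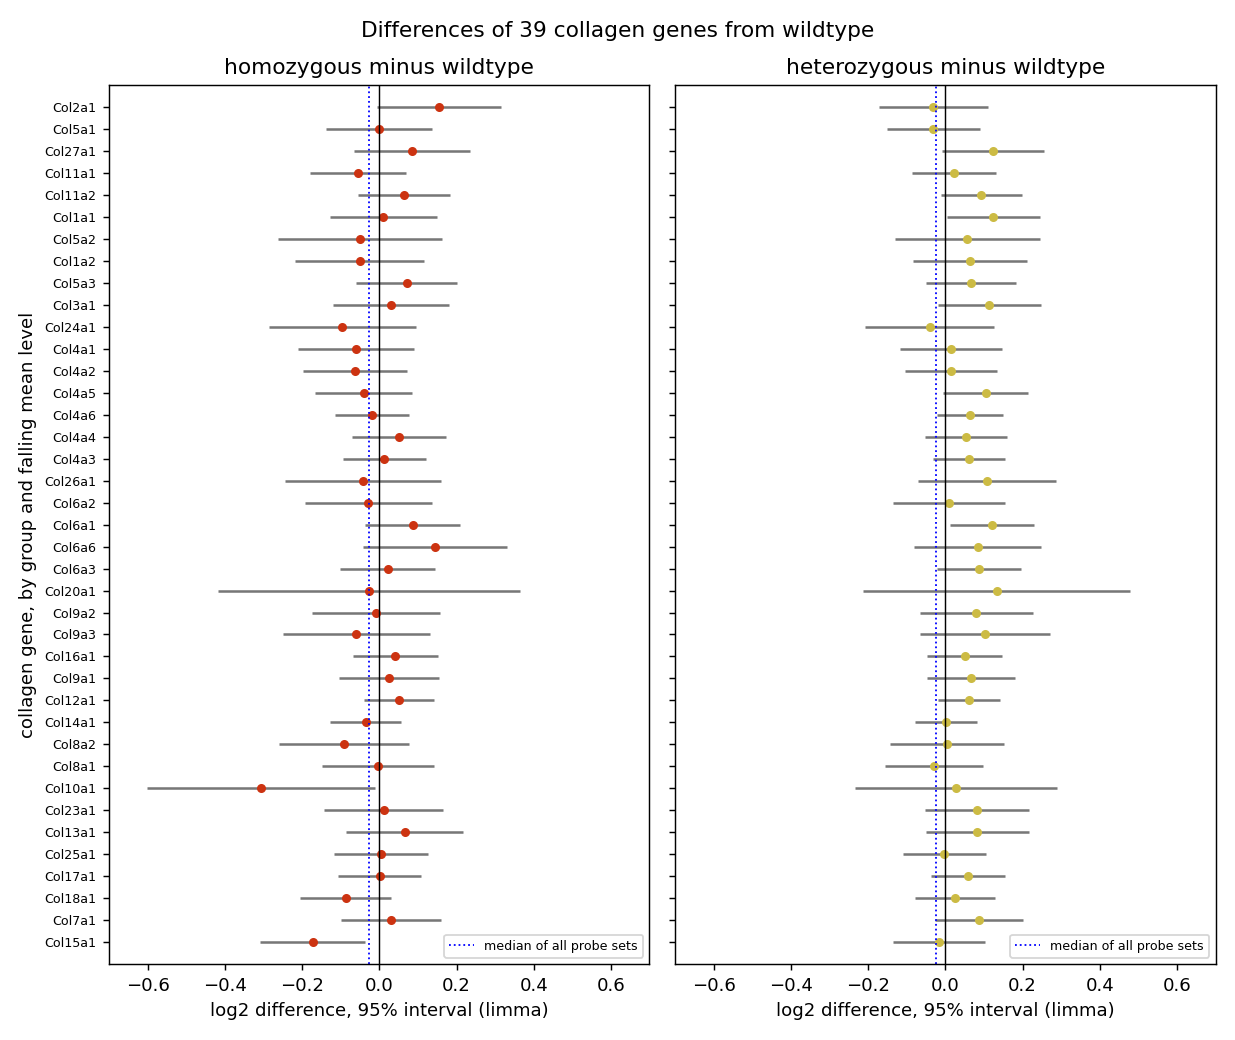
Log2 differences of the 39 collagen genes from wildtype on the horizontal axes, homozygous on the left and heterozygous on the right, with 95% intervals from limma as bars; the vertical axis lists the genes by structural class. The dotted lines mark the median of all probe sets, and the interval of every gene except Col10a1 lies within ±0.5 on the left.

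Among the 11 fibrillar collagens, Col2a1 encodes the main collagen of cartilage and is also transcribed in embryonic neuroepithelium. Its signal in wildtype embryos ran from 4.23 over a median of 4.44 to 4.58, and in heterozygous embryos from 4.24 over 4.38 to 4.63. Homozygous embryos had 4.40, 4.67, 4.66 and 4.64. Replicate 1 of that group lay inside the wildtype range and the other 3 embryos above it. The difference from wildtype was 0.15 (SE 0.077, 95% interval -0.01 to 0.32, limma adjusted p = 0.352). That from heterozygous embryos was 0.19, with an adjusted p of 0.548. The cartilage markers Matn1 and Matn3 differed by -0.11 and 0.08 in homozygous embryos (limma adjusted p = 0.481 and 0.689). Both read under the olfactory receptor percentile in every embryo, so these differences say little about cartilage. Of the 7 measured cartilage markers 5 were higher and 2 lower, with a median of 0.02. Of all probe sets up to that percentile, 56.3% were higher.

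Col1a1 and Col1a2, whose chains make type I collagen, and Col3a1, the chain of type III collagen of vessels and meninges, were measured at lower signal. Wildtype embryos had Col1a1 signals of 1.76 ± 0.09 (SD, n = 8), heterozygous embryos 1.88 ± 0.10 (SD, n = 6) and homozygous embryos 1.77 ± 0.11 (SD, n = 4). Homozygous embryos read 1.80, 1.77, 1.61 and 1.89, inside the wildtype range of 1.65 to 1.91 except for replicate 3, just below it. The heterozygous difference was 0.12 (limma adjusted p = 0.659) and the homozygous difference 0.01 (95% interval -0.13 to 0.15). Col3a1 had homozygous signals of 1.09, 1.30, 0.97 and 1.37 around a wildtype range of 1.03 to 1.23, so these embryos lay on both sides of it. Its homozygous difference was 0.03 (95% interval -0.12 to 0.18), and that of Col1a2 was -0.05 (95% interval -0.22 to 0.12). Col5a1, which nucleates type I fibrils, gave 0.00 with an interval of -0.14 to 0.14. Col5a2 had an SD of 0.14 (n = 8) in wildtype, 0.25 (n = 6) in heterozygous and 0.02 (n = 4) in homozygous embryos. A difference in spread was not tested. Col27a1 gave a homozygous difference of 0.08 (95% interval -0.07 to 0.23).

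Of the 6 type IV collagen genes, Col4a1 and Col4a2 encode the chains of most basement membranes, including those of brain vessels. Col4a1 in wildtype embryos ran from 3.37 over a median of 3.52 to 3.62, and in heterozygous embryos from 3.35 over 3.53 to 3.68. The homozygous embryos read 3.47, 3.54, 3.20 and 3.55. Replicate 3 was the lowest of all 18 embryos, and the other 3 lay inside the wildtype range. The difference was -0.06 (95% interval -0.21 to 0.09, limma adjusted p = 0.763). Col4a2 gave 2.68, 2.71, 2.68 and 2.86 in homozygous embryos against 2.69 to 2.87 in wildtype ones, a difference of -0.06 (95% interval -0.20 to 0.07). Col4a5, an X-linked chain of specialised basement membranes, was 1.80 ± 0.07 (SD, n = 8), 1.90 ± 0.09 (SD, n = 6) and 1.76 ± 0.11 (SD, n = 4) in wildtype, heterozygous and homozygous embryos. Homozygous minus heterozygous embryos gave -0.15, which did not pass (SE 0.063, 95% interval -0.28 to -0.01, limma adjusted p = 0.548).

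Multiplexin collagens XVIII and XV carry sugar chains in vascular and epithelial basement membranes, and type VII collagen forms anchoring fibrils. Col18a1, whose end is the antiangiogenic fragment endostatin, ran from 3.80 over a median of 3.93 to 4.04 in wildtype embryos. Heterozygous embryos spanned 3.83 to 4.07, with a median of 3.98, and homozygous embryos had 3.86, 3.86, 3.78 and 3.91. Homozygous replicate 3 lay just below the wildtype range. The difference from wildtype was -0.09 (95% interval -0.20 to 0.03, limma adjusted p = 0.504). Col15a1 had the smallest adjusted p of the collagen genes in the homozygous comparison, 0.202. It ran from 1.22 over 1.36 to 1.52 in wildtype and from 1.22 over 1.36 to 1.44 in heterozygous embryos. Homozygous embryos had 1.25, 1.20, 0.99 and 1.33, with replicates 2 and 3 below all wildtype embryos. The difference was -0.17 (SE 0.065, 95% interval -0.31 to -0.04, unadjusted p = 0.015 from limma). Col7a1 gave 0.03 with an interval of -0.10 to 0.16.

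In the fibril-associated class, which holds 7 measured genes that decorate fibrils, Col20a1 had the widest spread of all members. Its within-genotype SD was 0.334, against a median of 0.0992 for the collagen genes and 0.149 for all probe sets. Homozygous embryos read 2.98, 3.05, 2.42 and 3.74, so that replicate 3 was below and replicate 4 above every wildtype embryo (2.83 to 3.43). Its difference of -0.03 had an interval of -0.42 to 0.36. Col9a2 and Col9a3, which code for chains of the cartilage collagen IX, gave -0.01 (95% interval -0.18 to 0.16) and -0.06 (95% interval -0.25 to 0.13).

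Members of the remaining classes had signals at or below 2.19 in all embryos. Among genes related to the beaded filaments of type VI collagen, wildtype embryos had Col6a1 signals of 0.98 ± 0.06 (SD, n = 8), heterozygous embryos 1.104 ± 0.07 (SD, n = 6) and homozygous embryos 1.07 ± 0.13 (SD, n = 4). Its heterozygous difference, 0.12, had the smallest adjusted p of the collagen genes in that comparison, 0.658 in limma. Col6a2 gave a homozygous difference of -0.03 (95% interval -0.19 to 0.14) and Col26a1 one of -0.04 (95% interval -0.24 to 0.16). In the network-forming class, Col10a1, a marker of hypertrophic cartilage, read 0.38, 0.18, 0.32 and 0.36 in homozygous embryos, inside the wildtype range of 0.07 to 1.08 and below the olfactory receptor percentile. Its difference was -0.31 (SE 0.14, 95% interval -0.60 to -0.01, limma adjusted p = 0.309). Col8a1 and Col8a2, chains of vascular type VIII collagen, had intervals of -0.15 to 0.14 and -0.26 to 0.08. The transmembrane collagens Col13a1, Col23a1 and Col25a1 gave 0.07, 0.01 and 0.00, with adjusted p of 0.737, 0.969 and 0.986 in limma.

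The mean over all 39 collagen genes ran from 1.57 to 1.68 in wildtype, 1.53 to 1.72 in heterozygous and 1.51 to 1.71 in homozygous embryos, so the groups overlapped. The mean of the 6 dorsal telencephalon markers did not overlap between homozygous embryos (7.08 to 7.17) and wildtype ones (7.19 to 7.45), with heterozygous embryos at 7.15 to 7.34. Of these markers 5 had a lower mean in homozygous embryos, the median difference was -0.20, and 0 passed the test. All 6 lay above the median signal of all probe sets. Of the probe sets above that median, 30.1% were higher in homozygous embryos, with a median difference of -0.08. The part of the lower marker mean in the collagen results was not tested. The means of the endothelial, meningeal and pericyte lists overlapped between genotypes. The endothelial mean ran from 1.55 to 1.77 in wildtype, 1.53 to 1.75 in heterozygous and 1.51 to 1.69 in homozygous embryos. The meningeal mean ran from 1.14 to 1.26, 1.16 to 1.27 and 1.09 to 1.21, and the pericyte mean from 1.88 to 2.07, 1.93 to 2.16 and 1.91 to 2.14. Of the 13 endothelial markers 4 had a higher and 9 a lower mean in homozygous than in wildtype embryos. Their differences ran from -0.45 to 0.17 with a median of -0.09, and 0 passed. Over all probe sets 40.9% had a higher mean, and the median difference was -0.03. The markers with the smallest p were Cdh5 and Tie1, an adhesion protein and a receptor of endothelial cells, at -0.45 and -0.24 (limma adjusted p = 0.0823 and 0.146).

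Genes that make, process, bind, degrade or assemble with collagen were read from lists of 73 genes, of which 56 were measured. Of these, 0 rose and 2 fell in homozygous against wildtype embryos, where 0.564% of all probe sets passed. Of those 94 probe sets 10 were higher, so most calls in the whole table were lower too. Both belong to the 12 measured basement membrane partners, the laminins, nidogens and proteoglycans found with type IV collagen in basement membranes. Lamb1, the laminin beta 1 chain, was 3.78 to 3.88 in wildtype embryos (median 3.82) and 3.55 to 3.98 in heterozygous ones (median 3.70). Homozygous embryos had 3.39, 3.35, 3.32 and 3.33. They lay below every wildtype and heterozygous embryo. The difference was -0.48 (SE 0.066, 95% interval -0.62 to -0.34, limma adjusted p = 0.00162) from wildtype, and -0.37 from heterozygous embryos, which missed the threshold (adjusted p = 0.0815). The latter passed with the 75th percentile of each array as covariate (adjusted p = 0.032), without heterozygous replicate 1 (0.0412) and without heterozygous replicate 6 (0.0299), and missed it under the other alternatives.

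Nid1, nidogen 1, which links laminin to the type IV network, ran from 2.03 over 2.29 to 2.35 in wildtype embryos. The heterozygous embryos spanned 1.94 to 2.34, and the homozygous ones read 2.005, 1.95, 1.79 and 1.83, below all wildtype embryos. Nid1 differed by -0.36 (SE 0.075, limma adjusted p = 0.0328). That call ended under several alternatives: adjusted p was 0.141 after quantile normalization, 0.125 after median centring, 0.0713 with a replicate block, and 0.0617 on the whole table. It also ended without any 1 of wildtype replicates 2, 3, 4, 5 and 8 or homozygous replicates 2, 3 and 4, with adjusted p of up to 0.144. Lamc1, the laminin gamma 1 chain, missed the threshold (-0.27, adjusted p = 0.115), as did Nid2 (-0.19, adjusted p = 0.223). Of the 12 measured partners 3 had a higher and 9 a lower mean in homozygous than in wildtype embryos. Their differences ran from -0.48 to 0.16, with a median of -0.07. Over all probe sets 40.9% had a higher mean. Among probe sets above the median signal 30.1% did, with a median difference of -0.08. Col4a1, Col4a2, Col18a1 and Hspg2, encoding perlecan, had intervals that covered 0.

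**Figure D3:**
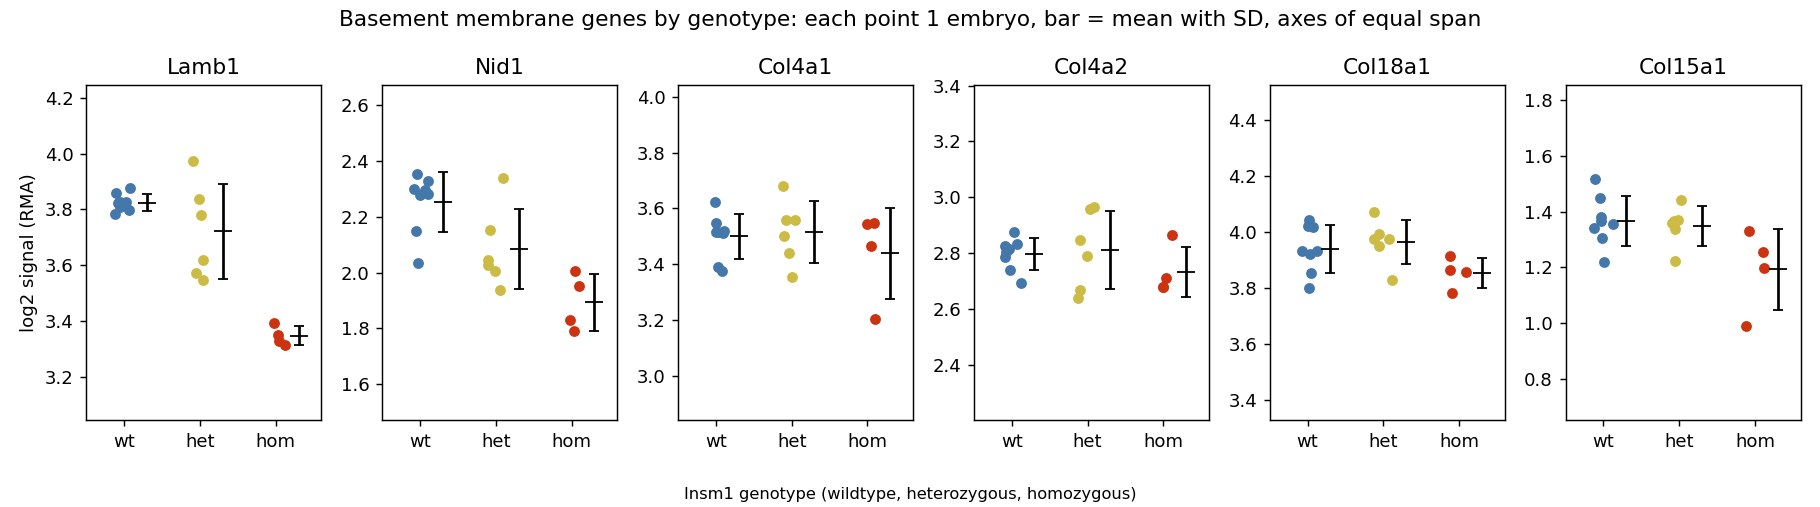
Log2 signal of Lamb1, Nid1, Col4a1, Col4a2, Col18a1 and Col15a1 by genotype, with 1 point per embryo and the mean with SD beside the points. Homozygous embryos lie below all wildtype embryos for Lamb1 and Nid1, and the genotypes overlap for the 4 collagen genes.

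The other lists held no called gene. In the biosynthesis list 16 of 20 genes were measured. Its lysyl hydroxylase Plod2 differed by 0.34 (SE 0.19, adjusted p = 0.432), and by 0.09 without homozygous replicate 2 (adjusted p = 0.903). Heterozygous replicate 6 and homozygous replicate 2, which also had the highest hypoxia list means, had the highest Plod2 signals, 5.44 and 5.57. With the hypoxia list mean as covariate, chosen after seeing the data, the Plod2 difference was 0.055 (limma adjusted p = 0.886). Hypoxia as a cause of the difference was not tested. Of 11 listed collagen receptors 8 were measured. Adgrg1 (Gpr56), the receptor for type III collagen on cortical progenitors, read 7.66, 7.57, 7.41 and 7.62 in homozygous embryos, below the wildtype range of 7.68 to 7.90. Its difference of -0.20 (SE 0.062, limma adjusted p = 0.116) did not pass. Pcolce2, an enhancer of procollagen processing, gave -0.22 and the tissue inhibitors of metalloproteinases Timp2 and Timp3 gave -0.29 and -0.30, with adjusted p of 0.325, 0.313 and 0.201. For Timp2 the homozygous embryos read 5.35, 4.47, 4.9955 and 5.22, and without replicate 2, the lowest, the difference was -0.12. No gene of these lists passed in heterozygous embryos against wildtype or in homozygous against heterozygous embryos.

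Whether collagen chains and markers varied together was asked within genotypes, for 8 relations over 18 embryos after subtracting genotype means, with two-sided permutation p-values. Col4a1 and the pericyte list had r = 0.69 (permutation p = 0.00829, Benjamini-Hochberg adjusted p = 0.0663) and rho = 0.70 (adjusted permutation p = 0.0246). It thus passed by rank but not by Pearson's r. Without the 2 embryos farthest from the median of Col4a1, heterozygous replicate 3 and homozygous replicate 3, r was 0.64. Within wildtype embryos r was 0.48 and within heterozygous embryos 0.82. Heterozygous replicate 6 and homozygous replicate 2 held the highest pericyte means, and without both r was 0.58. Those embryos also had high hypoxia list means, whose part was not tested.

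The other relations did not pass by either coefficient. Col4a1 with Col4a2 gave r = 0.51 (permutation p = 0.057, adjusted p = 0.0826, rho = 0.44), and 0.35 without the 2 farthest embryos. Col1a1 with Col1a2 gave r = 0.49 (permutation p = 0.0542, adjusted 0.0826, rho = 0.41), and 0.47 without the 2 farthest. For Col1a1 with Col3a1, r was 0.36 (permutation p = 0.214, rho = 0.38). Col6a1 with Col6a2 gave 0.52 (permutation p = 0.0521, rho = 0.40), and Col1a1 with Col4a1 gave 0.54 (permutation p = 0.0424, rho = 0.42), of which wildtype embryos gave -0.09 and heterozygous embryos 0.77. Col4a1 with the endothelial list gave 0.50 (permutation p = 0.062, rho = 0.47). Col1a1 with the meningeal list gave -0.01 (permutation p = 0.963, rho = -0.01), and -0.64 within wildtype embryos. The latter relation turned to 0.54 after median centring.

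**Figure D4:**
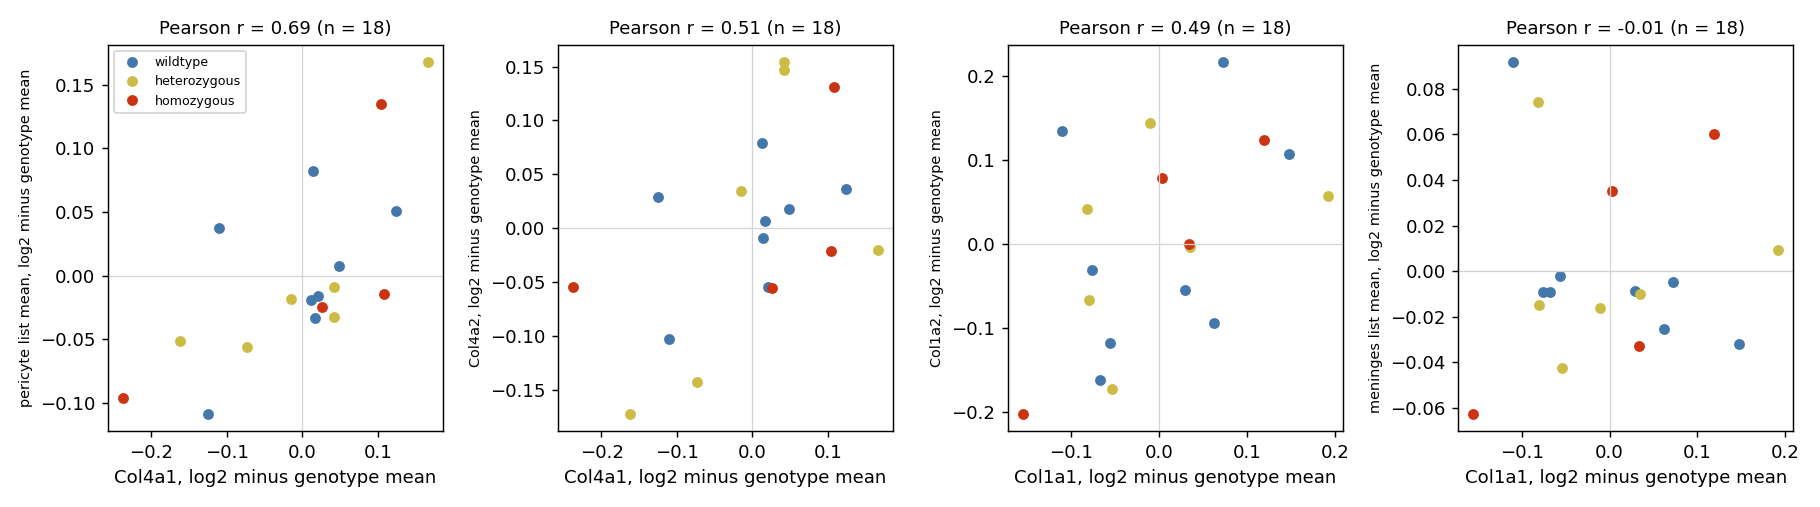
Log2 signal minus the genotype mean in 18 embryos for 4 relations, with the collagen gene on the horizontal axis, the partner gene or list mean on the vertical axis and colours for genotype. Pearson's r is 0.69 for Col4a1 with the pericyte list, 0.51 with Col4a2, 0.49 for Col1a1 with Col1a2 and -0.01 for Col1a1 with the meningeal list.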

How the data were processed

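Total RNA of each embryo was labelled by a whole-transcript sense-target protocol and hybridized to 1 array, per the labels. The deposited values are log2 signals per probe set, made by the authors with RMA in Affymetrix Expression Console 1.1, per the submitters' processing notes; no source used here names a genome build. RMA normalizes arrays to a common distribution and compresses low signals. The tests used the 16661 of 23238 probe sets with identifiers of 6700000 or above; the other 6577 are not in the probe table. Probe sets were named from the platform annotation, and of several probe sets for a gene the one with the highest mean was used.

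Linear models with genotype as the factor used limma 3.58.1 (R 4.3.3) on the 18 arrays together. Tests had 2 sides, and Benjamini-Hochberg adjustment ran over the 16661 probe sets at a threshold of 0.05. The procedure was tested on simulated data. Correlations used 100000 permutations within genotypes. Members and lists were chosen with earlier results of these data known. Named were the 3 collagen genes with the highest mean per class, the 3 with the smallest p per comparison, the 5 with the widest spread, 2 genes of each other list by smallest p, every called gene, Adgrg1 and Insm1; Col1a2, Col3a1, Lamc1, Nid2, Hspg2 and the marker examples were named as list members after their values were seen. No array was dropped or imputed, no arrays were identical, and the number of arrays limits the precision. Alternatives were other scalings, priors, weights, filters, groups, covariates, a replicate block and leaving out each array. The olfactory receptor reference was chosen after seeing the data. Promoter windows came from RefSeq (GRCm38.p6).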

Additional observations from a re-analysis of the deposited data

Results flagged for a closer look

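Among 87 groups of 4 to 8 embryos for 29 genes, 6 held a sample whose gap to its neighbour exceeded Dixon's 95% limit, where chance gives about 4.35, or 1 in 20. Homozygous replicate 1 had a Col2a1 signal of 4.398, against 4.64 to 4.67 in the other homozygous embryos. Col4a5 was 1.595 in homozygous replicate 3, against 1.80 to 1.83, and 1.646 in wildtype replicate 2, against 1.79 to 1.89. Col6a1 was 0.9688 in heterozygous replicate 3, against 1.09 to 1.16. Col9a3 was 2.08 in wildtype replicate 1, against 1.60 to 1.81. Insm1 was 4.022 in heterozygous replicate 6, against 4.76 to 5.17 in the other heterozygous embryos.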

How the results depend on the processing

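No collagen gene was called in any of the 3 comparisons under any of 31 alternatives; the hypoxia covariate and the counts at unadjusted p were chosen after seeing the data. For 23 named collagen genes, 2133 of 2133 comparisons stayed on the same side of the threshold, and 142 had another sign without a call. Over all probe sets, the alternatives called 0 in heterozygous against wildtype embryos and 1 to 31 in homozygous against heterozygous embryos. Calls were thus absent or rare in those comparisons for any gene. Calls over all probe sets in homozygous against wildtype embryos ranged from 36 without homozygous replicate 2 to 394 without homozygous replicate 1, with 158 after quantile normalization (84 higher) and 142 after median centring (75 higher), against 94 (10 higher); the share of higher calls thus depended on the scaling. Replicate numbers are shared labels only: 14 same-numbered pairs correlated between -0.21 and 0.22, and 2 of 18 arrays correlated best with their own number. With the replicate block, 0 collagen genes and 361 probe sets were called, and Nid1 had an adjusted p of 0.0713. Lamb1 stayed called throughout (-0.50 to -0.40). Nid1 also lost its call with the whole table (0.0617) and without any 1 of wildtype replicates 2, 3, 4, 5 and 8 or homozygous replicates 2, 3 and 4 (adjusted p up to 0.144).

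Correlations passed more often under other scalings; the cause was not tested. After quantile normalization Col1a1 with Col1a2 was 0.53, Col4a1 with Col4a2 0.68, Col1a1 with Col4a1 0.71 and Col4a1 with pericytes 0.79. After median centring Col1a1 gave 0.63 with Col1a2, 0.49 with Col3a1, 0.67 with Col4a1 and 0.54 with meninges (reversed), Col6a1 with Col6a2 gave 0.57, and Col4a1 gave 0.56 with Col4a2, 0.63 with endothelium and 0.75 with pericytes. With no centring by genotype, Col1a1 gave 0.55 with Col1a2, 0.50 with Col3a1 and 0.51 with Col4a1, and Col4a1 gave 0.55 with Col4a2, 0.54 with endothelium and 0.65 with pericytes. Without heterozygous replicate 6 and homozygous replicate 2 together, Col4a1 gave 0.64 with Col4a2 and 0.78 with endothelium. Leaving out 1 array gave 0.35 to 0.63 for Col1a1 with Col1a2, 0.13 to 0.56 with Col3a1, 0.36 to 0.70 with Col4a1 and -0.26 to 0.21 with meninges. Col4a1 gave 0.38 to 0.59 with Col4a2, 0.41 to 0.69 with endothelium and 0.61 to 0.77 with pericytes, and Col6a1 with Col6a2 gave 0.39 to 0.62.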

Other observations

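The genes whose signal was most like the mean of Col1a1, Col1a2 and Col3a1, by Pearson's r over 18 arrays after subtracting genotype means, were Tmc8 (0.91), Ltk (0.88), Adgra1 (0.85), Gata6 (0.85) and Itga7 (0.84). The next were Il12rb1, Cbx7, Cfap100, Prrxl1 and Amn, at 0.83 to 0.81. Meningeal markers had a median r of 0.16 to this mean, endothelial markers 0.27 and pericyte markers 0.22, against 0.03 for all genes. For the mean of Col4a1 and Col4a2 the most similar genes were Itga3 (0.84), Gbx2 (0.84), Ccdc60 (0.81), Mlxipl (0.80) and Gpr50 (0.80), followed by Evx1, Hpcal4, C5ar2, Taar7b and Gaa at 0.79 to 0.76. There the medians were 0.26 for meningeal, 0.29 for endothelial and 0.22 for pericyte markers, against 0.07 for all genes. Itga7, Il12rb1, Cfap100, Ccdc60, Mlxipl, Gpr50, Hpcal4 and C5ar2 had mean signals of 0.43 to 0.87, under the olfactory receptor percentile of 0.91. The other genes named lay above it. Both sets of names are the top of 14768 genes over 18 arrays. All points share the same arrays and their normalization, and the values are descriptions with no test.

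The choroid plexus genes Ttr and Clic6, a thyroid hormone carrier and a chloride channel protein, varied widely between embryos of the same genotype, with SDs of 1.62 and 1.08 (n = 8) in wildtype embryos. Their homozygous differences were 0.38 (95% interval -1.35 to 2.11) and -0.44 (95% interval -1.65 to 0.77), with limma adjusted p of 0.892 and 0.786.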
